A study of Mus musculus with 14 samples.

Results

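The 148 long intergenic noncoding RNA (lincRNA) genes described here are the expressed members of that gene class in mouse liver. They were chosen by their mean level over all 14 libraries, as genes typed lincRNA in the GENCODE M21 annotation with at least 1 CPM (counts scaled to a common library total). The annotation holds 5854 such genes, of which 5608 had a transcript in the deposited tables and 2326 had a count above 0. The rule does not use the group difference, but it was set with earlier results of these data known. A gene can also pass it through the group where it is high, as Gm47465, Gm34333 and H19 did. All 148 also passed the filter on low counts and were tested among 13131 genes. The genes just inside the threshold were Gm28875 and Gm15611 at 1.02 CPM and Gm43042 at 1.03 CPM, and those just outside were 1700086O06Rik at 0.985, 6720427I07Rik at 0.971 and Gm40040 at 0.962 CPM.

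The RNA came from livers of mice on a high-fat diet. Recipients in the transplant group (n = 6) carried a silk scaffold seeded with differentiated pre-adipocytes, derived from the brown fat stromal fraction, and their titles read iBAT 2x. Recipients in the empty scaffold group (n = 8) carried the scaffold without cells, and their titles read Sham-WT. The sources used here do not give age or strain, nor say that every sample is a separate animal. The p-values therefore reflect only how far these samples spread, which may be technical. The question was whether the transplant changes the liver transcriptome of the recipient.

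LincRNA genes are transcribed by RNA polymerase II from their own loci between protein-coding genes, are mostly spliced and carry no long open reading frame. Some act in the nucleus as scaffolds of nuclear bodies or on neighbouring genes, and others host small nucleolar RNAs in their introns or bind proteins in the cytoplasm. In liver they are known as a low and cell-type-restricted part of the transcriptome, and for most of the genes below no function is established.

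Estimated totals per library ran from 22898793 to 28910968 counts (transplant) and 19482580 to 28723928 counts (empty scaffold). The numbers in the sample titles fall into a range below 100 (3 transplant, 4 empty scaffold) and a range of 100 or above (3 and 4). The labels do not say what the numbers mean, and both groups are found in each range. All 10 hepatocyte genes on the marker list were expressed and tested, and none was called. Marker sums of other cell types overlapped between groups: 20 Kupffer cell genes summed to 416 to 539 CPM in transplant and 501 to 998 CPM in empty scaffold livers, with 8 of 20 lower (10 with length and GC trends removed), and 13 tested stellate cell genes to 136 to 266 against 172 to 395 CPM, with 6 lower (0 with trends removed). Of all tested genes, 4.23% were lower, and 1.68% with trends removed. Of 9 adipocyte genes 4 were high enough to test and none was called, and the list summed to 21.4 to 167 against 32.1 to 213 CPM. In whole liver, fewer cells of a type and less RNA per cell cannot be told apart, and the part of these sums in the lincRNA values was not tested.

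Of the 148 lincRNA genes, 11 were higher and 0 lower in transplant livers at an adjusted p under 0.05 (edgeR quasi-likelihood test, Benjamini-Hochberg over all 13131 genes). The share higher was 7.43%, beside 3.31% of all tested genes higher and 4.23% lower. At an unadjusted p under 0.05, 8 lincRNA genes were lower (5.41%, against 15.4% of all tested genes), and DESeq2 called 16 higher and 1 lower (7.18% and 6.37% of all genes). The median log2 fold change (transplant minus empty scaffold) of the 148 was 0.16, against -0.02 over all tested genes and -0.03 over protein-coding genes. In all, 98 of the 148 had a positive and 50 a negative value. The higher count depended on single libraries. It was 2 without transplant library 1 (0.385% of all genes), 4 without transplant library 3 (1.31%) and 3 without transplant library 5 (0.595%). It was 4, 4, 3, 3 and 5 without empty scaffold libraries 1, 2, 3, 4 and 8 (1.66%, 1.38%, 0.796%, 0.714% and 0.925%).

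When trends of gene level with transcript length and GC content were removed from each library, 4 lincRNA genes stayed called higher and 1 was called lower, beside 2.41% and 1.68% of all genes. These shares, 2.70% and 0.676% of the 148, lie near the background, and the median stood at 0.039 against 0.047 over all tested genes. With the range as a covariate added, 4 were higher and 2 lower (5.04% and 2.96% of all genes). An offset for the deposited effective lengths left 3 higher (1.04%).

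For 4 of the 11 called genes a RefSeq promoter window was found and is printed. The search for windows of called genes left out a chromosome, so this count may be too low. All 4 were higher because only called genes are shown, and of the 4 only Gm15889 stayed called with trends removed. Each window runs from 250 bases before to 50 bases after the RefSeq start, in build GRCm38.p6, 5′ to 3′ on the gene's strand. GENCODE and RefSeq starts lay 2 to 54 bases apart. Windows were searched on both strands for a STAT-type element, TTCNNNGAA. They were also searched for a nuclear receptor half-site, AGGTCA. The third motif was the TATA box, in the letters TATAAA. Capitals mark a match, and no matches overlap.

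The window of Gm15889, chr8:94377625-94377924 (+ strand), held none of the 3 motifs.
Gm15889: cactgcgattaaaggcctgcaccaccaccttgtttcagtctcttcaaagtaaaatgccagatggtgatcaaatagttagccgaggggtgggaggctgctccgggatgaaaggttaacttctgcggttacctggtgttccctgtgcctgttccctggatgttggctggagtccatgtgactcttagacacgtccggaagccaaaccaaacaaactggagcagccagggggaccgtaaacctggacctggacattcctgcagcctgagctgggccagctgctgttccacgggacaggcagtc

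The window of Gm36738, chr15:78581540-78581839 (- strand), held 1 STAT-type element, a motif that reads the same on both strands.
Gm36738: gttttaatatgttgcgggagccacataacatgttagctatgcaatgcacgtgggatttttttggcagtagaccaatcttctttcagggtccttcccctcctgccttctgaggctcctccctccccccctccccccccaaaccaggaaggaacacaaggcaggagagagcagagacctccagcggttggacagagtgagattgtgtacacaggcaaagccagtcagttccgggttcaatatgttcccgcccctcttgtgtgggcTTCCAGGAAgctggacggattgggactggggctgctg

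The window of Snhg12, chr4:132308428-132308727 (+ strand), held none of the 3 motifs.
Snhg12: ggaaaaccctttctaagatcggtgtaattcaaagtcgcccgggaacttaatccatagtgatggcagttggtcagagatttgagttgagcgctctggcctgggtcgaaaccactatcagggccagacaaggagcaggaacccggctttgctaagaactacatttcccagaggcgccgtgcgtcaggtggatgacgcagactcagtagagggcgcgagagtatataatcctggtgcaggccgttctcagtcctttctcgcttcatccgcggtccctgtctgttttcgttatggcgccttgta

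The window of Gm31583, chr16:24090016-24090315 (- strand), held 1 half-site, on the reverse strand.
Gm31583: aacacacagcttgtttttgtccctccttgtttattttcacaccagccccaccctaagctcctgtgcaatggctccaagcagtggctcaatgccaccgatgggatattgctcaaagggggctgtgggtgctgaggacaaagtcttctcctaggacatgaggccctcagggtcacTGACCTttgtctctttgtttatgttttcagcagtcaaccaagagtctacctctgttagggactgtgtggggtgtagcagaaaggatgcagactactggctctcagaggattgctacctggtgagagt

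Among all 32851 RefSeq windows, searched in the same way, the STAT-type element was found in 8.30%, the half-site in 16.3% and the TATA box in 13.6%. A match is a description of letters only. Of the 148 genes, 76 had a RefSeq window.

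**Figure D1:**
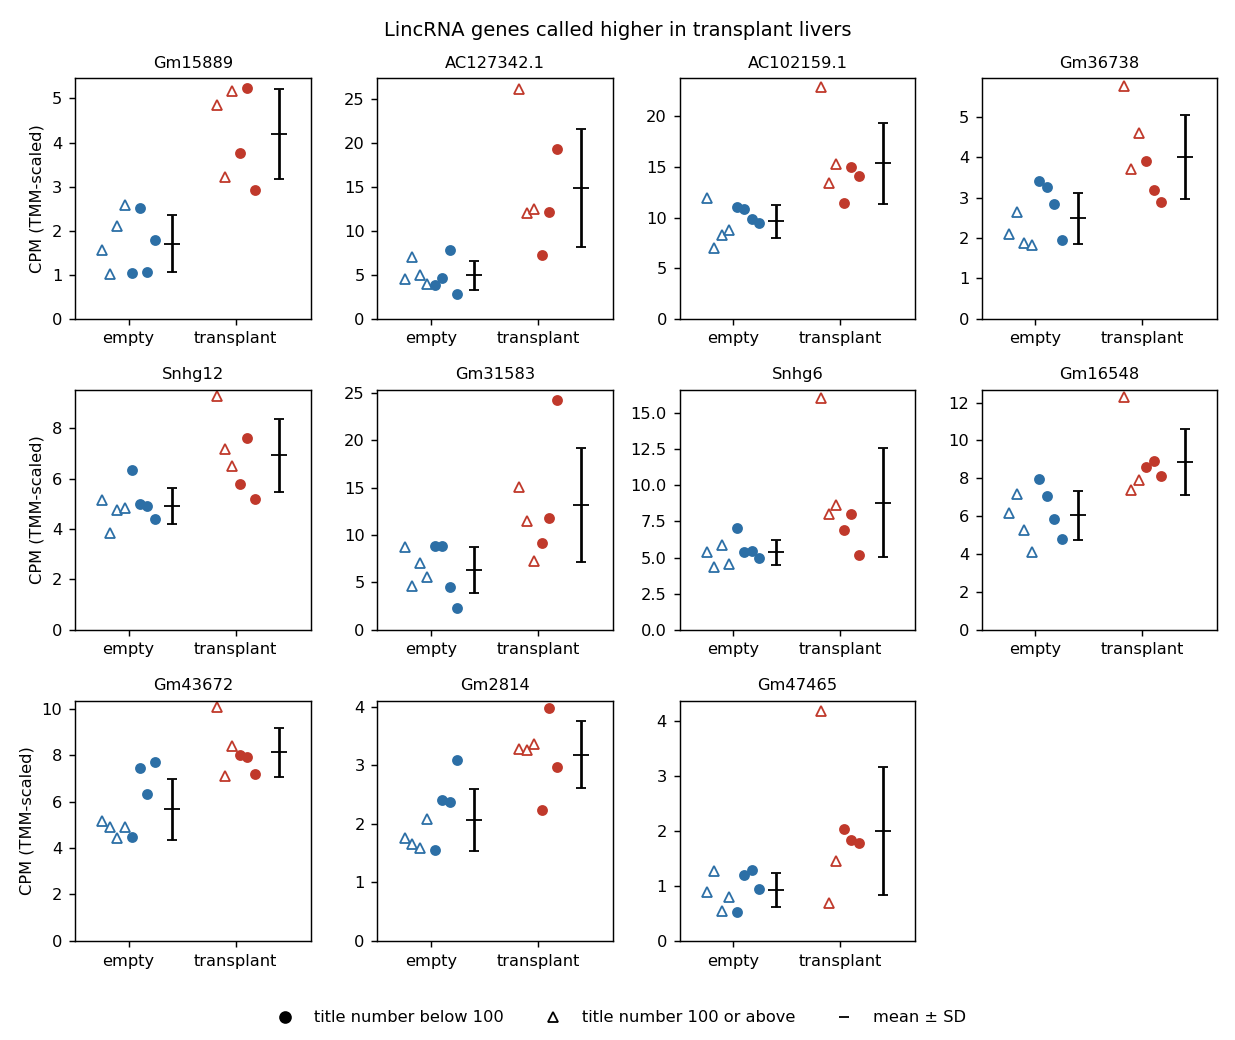
TMM-scaled CPM in each library (points) for the 11 called lincRNA genes, with mean ± SD of each group beside the points; filled circles are libraries with a title number below 100, open triangles those of 100 or above. The groups overlap in every panel except Gm15889, and transplant library 1 is the highest of all 14 in 8 of the 11.

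Gm15889 (ENSMUSG00000089712), an uncharacterised 1550-base lincRNA, was the only one of the 148 whose groups did not overlap. Such separation was seen in 0.571% of all tested genes in the higher and 0.701% in the lower direction. Its lowest, median and highest levels were 2.93, 4.30 and 5.24 CPM in transplant livers and 1.02, 1.67 and 2.57 CPM in empty scaffold livers. Every transplant library stood above every empty scaffold library. It rose by 1.29 ± 0.23 (log2, SE; edgeR adjusted p = 0.0133), with 1.31 in the libraries numbered below 100 and 1.28 in those of 100 or above. It was called in 14 of 14 fits that each left out 1 library, and at 1.14 (adjusted p = 0.0233) once the trends with length and GC were taken out. Its 2 annotated transcripts took different shares from library to library, with Gm15889-201 at 47.9% to 94.1% of the gene's count in transplant and 47.0% to 100% in empty scaffold livers, so no transcript can be named as the one that rose.

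Herpud1, a component of endoplasmic-reticulum-associated protein degradation, is the nearest protein-coding gene, on the same strand 6121 bases downstream of Gm15889. Its level was 485 ± 87.5 CPM (SD, n = 6) against 363 ± 45.4 CPM (SD, n = 8). Herpud1 also rose, by 0.42 ± 0.12 (edgeR adjusted p = 0.0461), and was not called with trends removed (adjusted p = 0.0806). Herpud1 was called in 3 of 14 fits that left out 1 library. It was called in neither number range alone (edgeR adjusted p = 0.447 below 100 and 0.0762 at 100 or above). Gm15889 was the only called lincRNA gene with a called neighbour.

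AC127342.1 (ENSMUSG00000117780), a gene with 1 annotated transcript of 2424 bases, had the largest log2 fold change among the called genes. Levels were 7.24, 12.3 and 26.2 CPM (lowest, median, highest) in transplant and 2.85, 4.57 and 7.86 CPM in empty scaffold livers. The groups overlapped only where the lowest transplant library fell below the highest empty scaffold library. The rise was 1.60 ± 0.25 (edgeR adjusted p = 0.0133), 1.45 and 1.74 in the number ranges below 100 and of 100 or above. It was called in 14 of 14 fits with 1 library left out and, at 1.52 (adjusted p = 0.0186), with trends removed.

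AC102159.1 (ENSMUSG00000118168), of 1649 bases, ran at 11.4, 14.5 and 23.0 CPM in transplant against 6.97, 9.64 and 11.9 CPM in empty scaffold livers. The overlap was narrow, and transplant library 1 stood well above the others. Its rise was 0.67 ± 0.15 (edgeR adjusted p = 0.0211) and, among the fits that left out 1 library, was lost only without transplant library 1 (adjusted p = 0.0549). It was also not called in the libraries numbered below 100 alone (adjusted p = 0.397). With trends removed it stood at 0.49 (adjusted p = 0.0411).

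Gm43672 (ENSMUSG00000106019), of 1733 bases, lies 510 bases from Tbl1xr1, which encodes a subunit of a nuclear receptor corepressor complex. Its levels were 7.10, 7.97 and 10.1 CPM against 4.44, 5.04 and 7.72 CPM. All 4 empty scaffold libraries numbered 100 or above lay below every transplant library, while 2 of those numbered below 100 reached into the transplant range. The rise was 0.52 ± 0.14 (edgeR adjusted p = 0.0407), and 0.45 (adjusted p = 0.0430) with trends removed. Tbl1xr1 itself stood at 0.03 ± 0.12 (adjusted p = 0.878).

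Snhg12 and Snhg6, which host small nucleolar RNAs in their introns, were the only called genes with an established class of function. Snhg12 (718 bases on average over its transcripts) ran at 5.20, 6.84 and 9.26 CPM in transplant and 3.84, 4.87 and 6.35 CPM in empty scaffold livers. It rose by 0.50 ± 0.14 (edgeR adjusted p = 0.0394). Snhg6 (543 bases) ran at 5.16, 8.04 and 16.1 CPM against 4.33, 5.41 and 7.08 CPM and rose by 0.72 ± 0.20 (adjusted p = 0.040), with transplant library 1 nearly alone at the top. In both genes the lower transplant libraries lay within the empty scaffold range. The values were 0.27 and 0.23 in the libraries numbered below 100 and 0.72 and 1.12 in those of 100 or above. With trends removed, both stood at 0.17 (adjusted p = 0.488 for Snhg12 and 0.503 for Snhg6), so neither call was kept. Snhg6 also overlaps Mcmdc2 on the opposite strand, which was too low to test. One form made up most of each gene in both groups: the leading Snhg12 transcript (673 bases) was 80.4% to 97.4% in transplant and 82.0% to 97.9% in empty scaffold livers, and that of Snhg6 (536 bases) was 75% to 83.1% and 76.5% to 86.7%.

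The wider list of small-RNA host genes, which GENCODE splits between lincRNA and other types, had 18 tested members of 35, of which 5 were higher and none lower, with a median of 0.54 (all tested genes: 3.31% higher, 4.23% lower, median -0.02). With trends removed, 0 were called and the median was 0.17. Besides Snhg6 and Snhg12, the called ones were Zfas1 (0.81), Dleu2 (0.79) and Snhg8 (0.56), which are typed processed transcript and so are no lincRNA genes. In that order they were called in 7, 9 and 4 of 14 fits that left out 1 library. None was called in the libraries below 100 alone (edgeR adjusted p = 0.682, 0.458 and 0.584). All were called in those of 100 or above (0.0156, 0.0413 and 0.0218), and each was highest in transplant library 1. Gas5, the growth-arrest-linked host gene, stood at 0.34 ± 0.14 (adjusted p = 0.115). Of the lincRNA hosts that did not pass the test, Epb41l4aos stood at 0.53 ± 0.26 (adjusted p = 0.174), Snhg18 at -0.40 ± 0.29 (0.355) and Snhg20 at -0.06 ± 0.27 (0.905).

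The remaining 5 called genes are uncharacterised. Gm31583 (3570 bases) ran at 7.28, 11.7 and 24.3 CPM against 2.26, 6.31 and 8.82 CPM and rose by 1.06 ± 0.29 (edgeR adjusted p = 0.0396). It was the longest of the called genes, and removing trends left its size at 1.12 while the adjusted p became 0.0592. Gm36738 (452 bases) ran at 2.88, 3.82 and 5.76 CPM against 1.83, 2.37 and 3.41 CPM and rose by 0.70 ± 0.19 (adjusted p = 0.0377). With trends removed it stood at 0.36 and was not called (adjusted p = 0.205). Its neighbour Rac2, a gene of blood cells 1628 bases away, stood the other way at -0.75 ± 0.24 and did not pass the test (adjusted p = 0.0583). Rac2 was called lower with the range as covariate (edgeR adjusted p = 0.0237) and with DESeq2 (adjusted p = 0.0288), and not with trends removed (edgeR adjusted p = 0.141).

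Gm16548 ran at 7.39, 8.35 and 12.3 CPM against 4.12, 6.0 and 7.95 CPM and rose by 0.56 ± 0.15 (edgeR adjusted p = 0.040). It overlaps Selp, the P-selectin gene, on the opposite strand. Selp stood at -0.71 ± 0.33 (adjusted p = 0.161), and the sources used here do not give the strand setting of the counting, so reads of the pair may not be separated. Gm2814 ran at 2.23, 3.27 and 3.98 CPM against 1.55, 1.91 and 3.09 CPM and rose by 0.63 ± 0.18 (adjusted p = 0.0409). Gm47465, the eleventh, falls outside the naming rule and was added after its values were seen. Its levels were 0.694, 1.81 and 4.19 CPM against 0.518, 0.921 and 1.30 CPM, with a rise of 1.11 ± 0.32 (adjusted p = 0.0438). In all 3 genes the groups overlapped, and with trends removed none was called (adjusted p = 0.111 for Gm16548, 0.159 for Gm2814 and 0.128 for Gm47465).

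Across the 11, both number ranges gave a positive value for every gene, and 9 of 11 had the larger value in the libraries of 100 or above. The 11 were called higher over these same libraries, so the shared sign follows largely from that choice. Values were positive in both ranges for 70 of 147 lincRNA genes and for 4229 of 12860 genes. In 8 of 11 the highest of all 14 libraries was transplant library 1. Gm15889 and AC127342.1 were called in all 14 fits that left out 1 library, and AC102159.1 in 13. The other 8 were called in 4 to 6 of the 14. All 8 missed the threshold without transplant library 1 (edgeR adjusted p = 0.0971 to 0.148), without transplant library 5 (0.0602 to 0.0977) and without empty scaffold libraries 3 (0.0705 to 0.0872) or 4 (0.0747 to 0.0832). Some of them also missed it without transplant libraries 2, 3, 4 or 6 or empty scaffold libraries 1, 2 or 8. Over all 148 lincRNA genes transplant library 1 was the highest in 44 (29.7%), against 17.8% of all tested genes. Its part in the calls beyond these fits was not tested.

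Gm34333 (669 bases), beside Gpr12, was the 1 lincRNA gene called lower with trends removed, and it was chosen for mention after its values were seen. Levels were 0.689, 0.918 and 1.14 CPM in transplant and 0.951, 1.20 and 2.10 CPM in empty scaffold livers, with overlap. The main value was -0.60 ± 0.22 (edgeR adjusted p = 0.0834), and the value with trends removed was -0.97 ± 0.17 (adjusted p = 0.0162).

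Fold changes of the lincRNA genes followed transcript length, more weakly than those of all tested genes. The 148 had a median length of 1562 bases (287 to 93147) against 2704 over all tested genes, and a lower median GC content (46.6% against 49.9%). Antisense genes (1406 bases) and processed transcripts (1610 bases) at the same level threshold were of like length. Across the 148, Spearman's correlation of log2 fold change with length was -0.31, and across all tested genes -0.55. The points share the same 14 libraries, so these are descriptions. With trends removed the values were 0.19 and -0.03. For GC content, the correlation over the 148 was -0.06.

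Among the 49 lincRNA genes of 287 to 1174 bases the median log2 fold change was 0.26, and 4 were called higher (8.16%, against 12.2% of protein-coding genes within the same bounds). The 49 of 1174 to 2245 bases had a median of 0.22, with 5 called (10.2% against 5.32%), and the 50 longer ones a median of -0.02, with 2 called (4.0% against 0.917%). Protein-coding genes showed the same order, with medians of 0.34, 0.13 and -0.14. With trends removed the lincRNA medians were -0.07, 0.07 and 0.08, against 0.08, 0.05 and 0.04 in protein-coding genes. Of the 11 called genes 9 were shorter than 2245 bases.

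**Figure D2:**
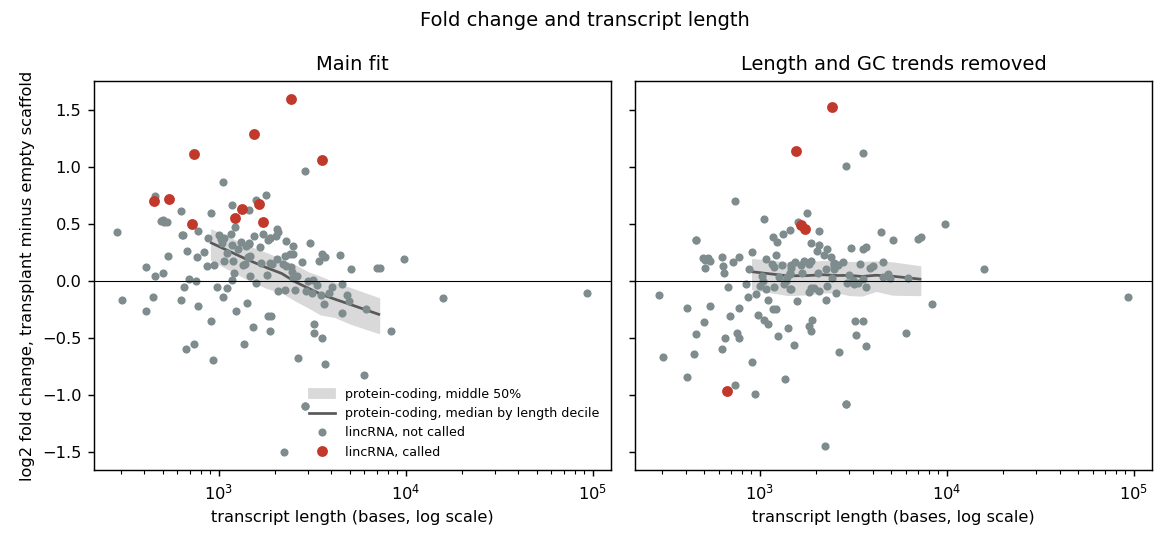
Log2 fold change (transplant minus empty scaffold) of the 148 lincRNA genes (points, called genes red) against transcript length on a log axis, in the main fit (left) and with length and GC trends removed (right). The grey line and band give the median and the middle 50% of protein-coding genes by length decile; the lincRNA points follow the downward line on the left (Spearman's correlation -0.31) and not on the right (0.19).

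Libraries differed in how gene level followed length. The slope over all tested genes, in log2 CPM (deviation from the gene's mean) per doubling of length, was -0.27 to 0.03 in transplant libraries. In empty scaffold libraries it was -0.13 to -0.0030 where numbered below 100 and 0.20 to 0.24 where numbered 100 or above. The groups differed by -0.185 (two-sided exact permutation p = 0.0310 over 3003 arrangements). That p was above 0.05 without any 1 of transplant libraries 1, 4 and 5 (0.0800, 0.0622 and 0.0544) or empty scaffold libraries 1, 2, 3 and 4 (0.0612 each). Within the ranges the difference was -0.0665 (exact permutation p = 0.143) below 100 and -0.303 (p = 0.0286, the smallest that 35 arrangements allow) at 100 or above. For GC content the slopes differed by -0.0576 per 10 percentage points (exact permutation p = 0.322), by -0.0257 below 100 (p = 0.771) and by -0.0895 at 100 or above (p = 0.0286, again the smallest possible).

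The median deviation of the 148 lincRNA genes from their own means was highest in transplant library 1, at 0.33. It was -0.07 to 0.09 in the other transplant libraries, -0.21 to -0.09 in the empty scaffold libraries of 100 or above and -0.10 to 0.12 in those below 100. Transplant library 1 also had the steepest negative slope. Empty scaffold library 7 did not follow this order, with a slope of -0.13 and a deviation of -0.10, and by summed level empty scaffold library 3 (slope 0.23) was the second highest at 1486 CPM. The part of the slopes in the lincRNA calls beyond the fit with trends removed was not tested.

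**Figure D3:**
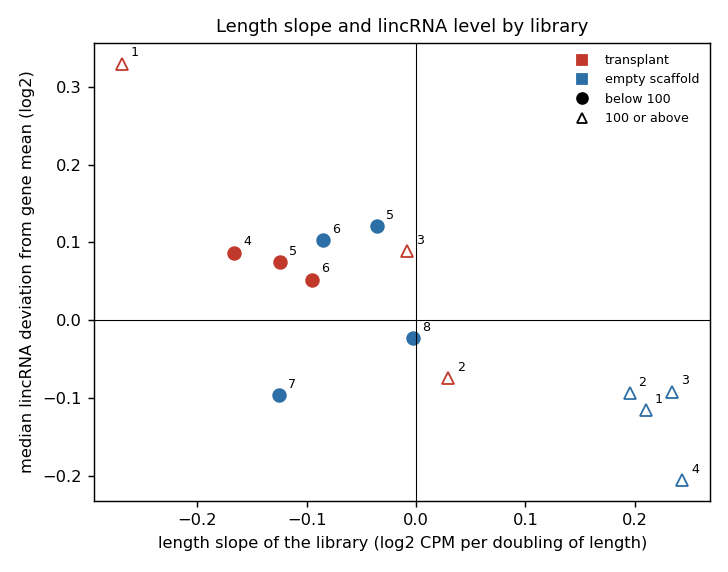
Each point is 1 of 14 libraries, numbered by replicate within its group: its slope of gene level on transcript length over all tested genes (x, log2 CPM per doubling of length) and the median log2 deviation of the 148 lincRNA genes from their means (y). Transplant library 1 lies at the upper left (slope -0.27, deviation 0.33) and the 4 empty scaffold libraries numbered 100 or above at the lower right.

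The number ranges were compared in the same way. With group and range in one model, 12 lincRNA genes were higher and 16 lower in the libraries numbered 100 or above, beside 12.5% and 10.9% of all tested genes. These are 8.11% and 10.8% of the 148, no more than the background. The interaction of group and range was called for 0 of the 148 and 0.0% of all genes, with 21 lincRNA genes (14.2%) and 2275 of all genes (17.3%) at an unadjusted p under 0.05. With the range as a covariate 17 lincRNA genes were higher and 2 lower (AU020206 and Gm34333, named after their values were seen), beside 10.5% and 9.08% of all genes. The libraries of 100 or above alone called 24 higher and 1 lower (14.5% and 11.5% of all genes), and those below 100 alone called 0 in either direction (0.0154% and 0.00771%), where 19 lincRNA genes had an unadjusted p under 0.05 (12.9%, against 9.31% of all genes). Log2 fold changes of 147 lincRNA genes that could be fitted in both ranges had the same sign in 66.0%, against 68.7% of 12860 genes, with Spearman's correlation of 0.39 and 0.51.

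**Figure D4:**
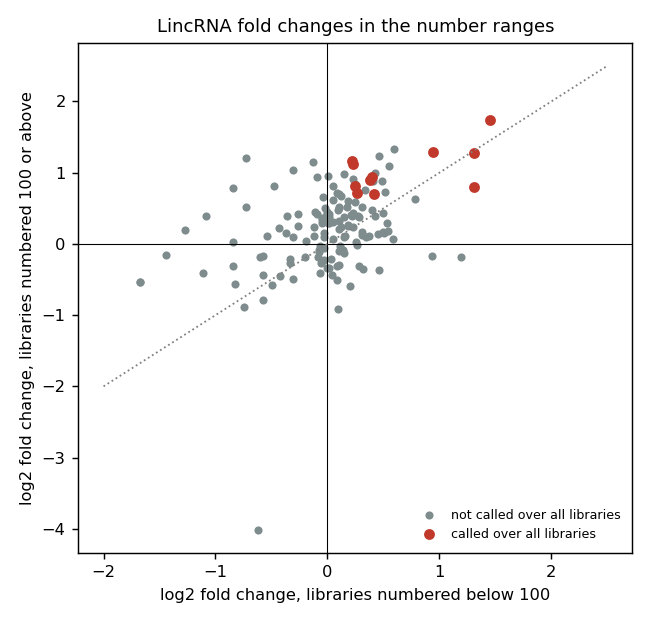
Log2 fold change (transplant minus empty scaffold) of 147 lincRNA genes in the libraries numbered below 100 (x) and 100 or above (y); the dotted line marks equal values and red points are the 11 called over all libraries. All 11 have positive values on both axes, 9 of them above the dotted line; the lowest point is H19.

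The nuclear body RNAs did not pass the test. Neat1, the architectural RNA of paraspeckles, had 34.3, 47.7 and 93.1 CPM in transplant against 13.4, 90.2 and 237 CPM in empty scaffold livers (lowest, median, highest). The transplant range lay wholly inside the empty scaffold range, whose ends were libraries 7 and 3 and differed 17.7-fold. The difference was -0.83 ± 0.46 (edgeR adjusted p = 0.240), and leaving out single libraries gave adjusted p-values of 0.0643 to 0.448. The long form Neat1-201 (21163 bases), which builds the paraspeckle, made up 14.7% to 21.9% of the gene's count in transplant and 13.3% to 19.2% in empty scaffold livers. None of 20 genes for paraspeckle proteins was called (median -0.06).

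Malat1, an RNA of nuclear speckles encoded next to Neat1, ran at 24.4, 47.8 and 85.8 CPM against 15.5, 44.0 and 71.1 CPM. The ranges were nearly the same, and the difference was 0.12 ± 0.33 (edgeR adjusted p = 0.833). Malat1 and the long Neat1 form are known to end without a poly(A) tail, and how RNA was selected for these mRNA libraries is not stated in the labels.

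Neat1 was 1 of 12 lincRNA genes (8.11%, against 3.05% of all tested genes) with the highest level in empty scaffold library 3 and the lowest in empty scaffold library 7. Others were Gm20186, Snhg20, C730036E19Rik and Gm42047, none of them called. Gm42047, which overlaps the gene model Gm20388, ran from 2.78 to 79.2 CPM within the empty scaffold group.

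2900097C17Rik, the mouse counterpart of NORAD, which binds Pumilio proteins in the cytoplasm, was among the steadiest of the abundant genes. Levels were 75.3, 89.8 and 108 CPM in transplant and 82.3, 102 and 126 CPM in empty scaffold livers. It stood at -0.17 ± 0.11 (edgeR adjusted p = 0.305), and at 0.025 with trends removed. Between number ranges it did differ, being higher by 0.31 in the libraries of 100 or above (adjusted p = 0.0142).

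Per kilobase of transcript, the 148 were led by 1810058I24Rik at 88.7 CPM per kb, which is reported to encode a small mitochondrial protein. AW112010, an interferon-inducible transcript of immune cells, followed at 63.1 and AC102496.1 at 60.8. Neat1 stood at 14.1 and Malat1 at 6.73 CPM per kb. For 1810058I24Rik the levels were 80.9, 132 and 166 CPM against 80.5, 108 and 179.1 CPM, ranges that coincide, with 0.14 ± 0.18 (edgeR adjusted p = 0.613). AW112010 ran at 44.2, 48.9 and 73.5 CPM against 33.6, 43.8 and 63.4 CPM, with 0.21 ± 0.15 (adjusted p = 0.341) and -0.23 once trends were removed. AC102496.1 stood at 0.32 ± 0.16 (adjusted p = 0.190).

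Summed over the 148, lincRNA levels were 1135 to 1498 CPM in transplant and 1129 to 1486 CPM in empty scaffold livers. The 10 highest genes made up 44.2% to 56.2% of the sum. By their medians, lincRNA levels were lower and varied more between libraries than those of all tested genes. The median level was 2.44 CPM against 11.5 CPM over all tested genes. The highest over the lowest library was 3.31-fold for the median lincRNA gene and 2.06-fold over all genes. The median SE of the log2 fold change was 0.23 against 0.15. Most other noncoding types at the same level threshold stood close to the lincRNA genes. The median ratio was 2.995-fold for antisense genes, 3.05-fold for processed transcripts and 2.94-fold for genes typed TEC. Their median levels were 2.24, 2.32 and 1.84 CPM. Genes typed bidirectional promoter lncRNA varied less, at 2.27-fold and 3.13 CPM.

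H19, an imprinted RNA of fetal liver, ran at 0.0381, 0.364 and 1.49 CPM in transplant and 0.251, 1.4 and 3.49 CPM in empty scaffold livers. The groups overlapped, and the difference was -1.50 ± 0.69 (edgeR adjusted p = 0.155). In the libraries of 100 or above alone H19 was called lower (adjusted p = 0.0170), where its transplant levels are so low that the fitted size is not a bound. Jpx and Ftx, RNAs of the X-inactivation centre, stood at 0.39 ± 0.20 (adjusted p = 0.185) and -0.08 ± 0.24 (0.845). Lncbate1, a lincRNA known from brown adipocyte differentiation, ran at 0.961, 1.65 and 3.81 CPM in the livers of transplant recipients and 0.508, 1.34 and 1.77 CPM in those of empty scaffold recipients. The groups overlapped for most libraries, and the value of 0.60 ± 0.30 did not pass the test (adjusted p = 0.187).

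**Figure D5:**
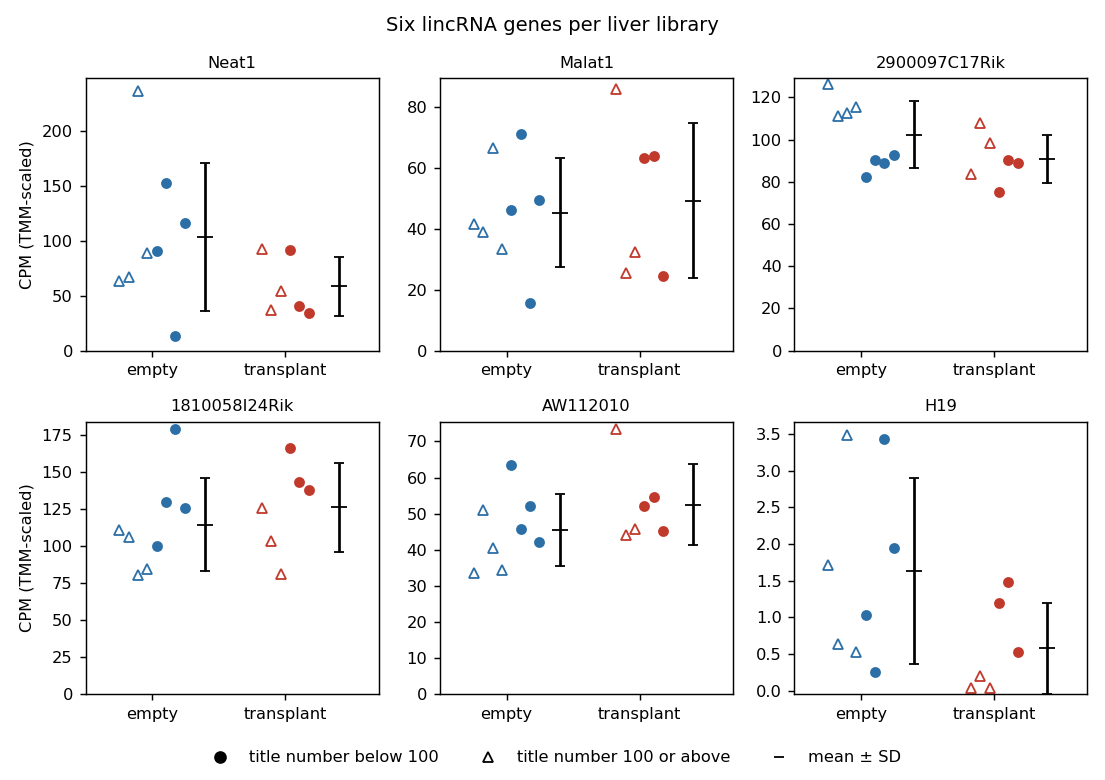
TMM-scaled CPM in each library for 6 lincRNA genes that did not pass the test, with mean ± SD of each group beside the points; filled circles are libraries numbered below 100, open triangles those of 100 or above. The groups overlap in all 6 panels, and the widest spread is that of Neat1 in the empty scaffold group (13.4 to 237 CPM).

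Neighbouring protein-coding genes were compared with the lincRNA genes. Of the 148, 112 had one within 50 kb, and 93 of these pairs could be tested. Spearman's correlation of the paired log2 fold changes was 0.18 and Pearson's r 0.20, as a description over pairs that share libraries, and 46 of 93 pairs had the same sign. Of the neighbours, 6 were called (6.45%, against 7.54% of all tested genes), and Gm15889 with Herpud1 was the 1 pair in which both were. Beside Snhg18, Sema5a, a semaphorin gene named after its value was seen, was lower at -1.20 (edgeR adjusted p = 0.0467) while Snhg18 itself did not pass the test.

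Annotation limits which lincRNA counts can be read as one locus. Of the 148, 29 overlap another gene on the same strand, 6 of them a protein-coding one, and 38 overlap a gene on the other strand. Gm48419 and Gm48423 had identical counts in every library and cannot be told apart. Only 18 of the 148 have a name other than a Gm number, a Rik clone or a contig. Other noncoding types at the same level threshold also had positive medians: antisense genes had 0.24 (8 of 116, or 6.90%, higher and none lower) and processed transcripts 0.28 (11 of 79, or 13.9%, higher and 1 lower), against 3.31% and 4.23% of all tested genes. Genes typed bidirectional promoter lncRNA had 0.27 (6 of 22, or 27.3%, higher and none lower). Those typed TEC had 0.04, with 0 of 38 called. With trends removed 2 of 116 antisense genes were higher and none lower, and 4 of 79 processed transcripts were higher and 1 lower. Of all tested genes 2.41% were higher and 1.68% lower in that fit. A difference from the lincRNA genes was not tested.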

How the data were processed

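RNA was extracted with a column kit, and samples with an RNA integrity number above the stated minimum went into stranded mRNA libraries from 200 ng of RNA, per the labels' protocols. The submitters' processing notes name fastp 0.20, kallisto 0.46.1, DESeq2 1.38 and GRCm39; the sources used here do not give the kallisto options, strand setting or annotation release. The authors' tables hold an estimated count, a TPM and an effective length per transcript, per the file headers; the deposited TPM values keep no depth and entered no test. Of 128803 listed transcripts, 120661 (93.7%) matched GENCODE M21, an annotation of GRCm38, and held 99.4% to 99.5% of each library's counts; it supplied names, gene types, lengths and neighbours, and coordinates are printed only for RefSeq windows in their own build.

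Estimated counts were summed per gene and rounded. Genes passing filterByExpr (13131 of 24983) were scaled by TMM and tested with edgeR 4.0.16 (R 4.3.3), quasi-likelihood F test with robust estimation, two-sided, group as the only term; adjusted p-values are Benjamini-Hochberg over all tested genes, with calls under 0.05 and no fold threshold. Levels are CPM of the TMM-scaled library and fold changes are log2 with the SE of the fit. Trends were removed as natural splines (4 degrees of freedom each) on log2 length and GC content per library, through an offset, and the fits were tested on simulated data. Library slopes used log2 CPM after adding a count of 0.5, scaled to library size. Median deviations used log2(CPM + 0.5).

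The lincRNA genes, the 18 gene lists and the tests were chosen with earlier results of these data known. Named genes are the lincRNA genes in fixed lists of known noncoding RNAs whatever their result, the 10 with the highest mean level, up to 10 called per direction by smallest adjusted p, and the nearest protein-coding gene of the latter within 50 kb. Others are marked or serve as members of a list. Alternatives were DESeq2 1.42.0, RLE scaling, no filter, other level thresholds, the number range as covariate or each range alone, trends removed, an effective length offset, and leaving out each library. Leaving out rRNA-like loci changed nothing, since neither locus is among the genes used.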

Additional observations from a re-analysis of the deposited data

Results flagged for a closer look

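Dixon's test was applied to the levels of the named and called lincRNA genes in each group, 74 groups of libraries in all, and chance alone marks about 1 in 20. In 7 groups, 1 library lay far from the others. In transplant library 1 the highest value stood apart for Snhg6 (16.1 CPM), AC102159.1 (23.0 CPM), Gm16548 (12.3 CPM), AW112010 (73.5 CPM) and Snhg20 (3.28 CPM). In transplant library 3 it did so for Gm15611 (2.97 CPM), and in empty scaffold library 5 for D630033O11Rik (2.03 CPM). The first 3 are among the called genes and were not called without transplant library 1.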

How the results depend on the processing

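No paired analysis was possible because the replicate numbers follow accession order and pair no libraries. The count of 11 lincRNA genes higher became 17 with the number range as covariate, 24 in the libraries of 100 or above and 0 in those below 100, 4 with length and GC trends removed (also 4 with the range as covariate added), 3 with an effective length offset, and 7 of 46 genes at a mean of at least 5 CPM. The count of 0 lower became 2 with the range as covariate, 1 in the libraries of 100 or above, 1 with trends removed (2 with the range added), 1 with DESeq2 and 1 of 229 genes at a mean of at least 0.5 CPM. The share over all genes at these other level thresholds was not computed, so those counts cannot be set against a background. RLE scaling, no filter and DESeq2 stayed within 1.5 times of 11. Leaving out 1 library gave 2 to 15 higher, 0 to 1 lower (AU020206, without empty scaffold library 7) and a median of 0.12 to 0.21. The 15 came without empty scaffold library 5, where 748 of 13104 tested genes were higher. Without empty scaffold library 7, where AU020206 was lower, 934 of 13121 tested genes were lower. The slope difference on length was -0.0665 below 100, a split chosen after seeing the data, -0.190 over protein-coding genes and -0.214 to -0.152 with 1 library left out, where the exact permutation p reached 0.0800 without transplant library 1.

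Direction changed only in named genes that did not pass the test. With trends removed, without and with the range as covariate, 2900097C17Rik stood at 0.025 and 0.025, AW112010 at -0.23 and -0.23, 1810058I24Rik at -0.027 and -0.045, AC117816.1 at -0.045 and -0.062 and Gm42047 at 0.038 and 0.082. In the libraries below 100, Lncbate1 stood at -0.13, AW112010 at -0.0046, C730036E19Rik at 0.28, Tmem250-ps at -0.033 and Gm42047 at 0.21. In those of 100 or above, Ftx stood at 0.095, Snhg20 at 0.048, Gm6135 at 0.78, AC117816.1 at -0.0087 and Gm4316 at -0.088. Gm6135 stood at 0.012 with RLE scaling, 0.023 with the range as covariate and 0.0075 with DESeq2. With 1 library left out, the ranges were -0.12 to 0.26 for Malat1, -0.26 to 0.077 for Ftx, -0.19 to 0.14 for C730036E19Rik, -0.30 to 0.096 for Snhg20, -0.25 to 0.16 for Gm6135, -0.012 to 0.053 for Tmem250-ps, -0.54 to 0.0027 for Gm42047 and -0.090 to 0.25 for Gm4316. For other values of the named lincRNA genes, 37 refits under other settings and 69 with 1 library left out lost the call. In 1 refit (H19, libraries of 100 or above) the call was gained. The cause was not tested, and neighbouring protein-coding genes are not in these counts. Low counts limit precision: a gene at the 1 CPM threshold rests on few counts a library.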
